A study of Mus musculus with 6 samples.

Results

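The receptors for interleukin-1, interleukin-6, tumour necrosis factor and the interferons were followed in the mouse hippocampus after loss of IκBα from the neural lineage. They comprised 10 genes, Il1r1, Il1rap, Il6st, Il6ra, Tnfrsf1a, Tnfrsf1b, Ifngr1, Ifngr2, Ifnar1 and Ifnar2, and were chosen by symbol, with earlier results of these data known. Every probe set of the array that carried only one of these symbols was taken, which gave 24 of 45037 probe sets, with 1 to 5 for each gene. The tested animals were 3 IκBα-deficient mice (IκBαfl/-;Nestin-Cre), in which a Cre recombinase driven by the Nestin promoter deletes the floxed allele, and the comparison animals were 3 littermate controls (IκBαfl/-) with the same floxed and null alleles but no recombinase. All were 2 to 3 months old, and both groups therefore carried 1 null allele of the gene. Total RNA of the hippocampus of each animal was measured on an Affymetrix mouse array, and values are deposited RMA values on the log2 scale, with n = 3 arrays in each group. Nestin-Cre acts in the neural lineage, so microglia and vessel cells, which arise elsewhere, are not its main targets.

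IκBα, the product of Nfkbia, holds NF-κB in the cytoplasm. The receptors for interleukin-1 and tumour necrosis factor send signals that lead to destruction of IκBα and release of NF-κB, while the receptors of the interleukin-6 family and of the interferons signal mainly through Janus kinases and STAT factors. Each of these receptors works as a complex. A ligand-binding chain such as IL1R1, IL6RA, IFNGR1 or IFNAR2 is joined by a partner such as IL1RAP, gp130 (the product of Il6st), IFNGR2 or IFNAR1. TNFR1 (Tnfrsf1a) carries a death domain and is made by most cells, whereas TNFR2 (Tnfrsf1b) has none and is best known in immune cells, microglia and endothelium.

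The Nfkbia transcript itself was read by 5 probe sets, all with a difference below 0, of which 3 fell by the test, and 4 had no overlap between the groups. Probe set 1438157_s_at stood at 7.04, 7.07 and 6.86 in IκBα-deficient animals, against 8.81, 8.71 and 8.78 in controls, a difference of -1.77 ± 0.08 (SE). Its p, adjusted over all 45037 probe sets by the Benjamini-Hochberg method, was 0.00183 (limma). It was 1 of 3 probe sets called on the whole array, all lower, which is 0.00666% of those tested. None was called higher, and all 3 belonged to Nfkbia (1438157_s_at, 1448306_at and 1449731_s_at). The brightest, 1420088_at, stood at 9.06, 9.13 and 8.66 in IκBα-deficient animals, against 10.39, 10.35 and 10.31 in controls, and did not pass (limma, adjusted p = 0.0629). Probe set 1420089_at stood at 5.96, 5.997 and 5.76 in IκBα-deficient animals, against 6.36, 6.49 and 5.93 in controls, so that its groups overlapped (limma, adjusted p = 1.00). Whether the probes of these sets lie in the deleted part is not given in the sources used here.

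There were 4 receptor probe sets, from Il6st, Tnfrsf1b and Ifngr1, that were higher on every IκBα-deficient array than on any control array, by 0.30 to 0.31 on the log2 scale or 1.23-fold to 1.24-fold. None of the 24 receptor probe sets passed an adjusted p of 0.05 (limma, Benjamini-Hochberg), and each had an adjusted p of 1.00. Before adjustment, 4 had p under 0.05 with a difference above 0 and 0 with one below (limma), where 2.15% and 1.19% of all probe sets did so. The same 4 were those whose groups did not overlap, where 4.76% of all probe sets lay wholly above the controls and 3.68% wholly below. Of the 24, 15 had a difference above 0 and 9 below, with a median of 0.03, beside 49.8% above 0 and a median of -0.0005 over all probe sets. Taking the brightest probe set of each gene, 8 of the 10 genes were above 0, with a median of 0.09, beside 52.6% and 0.01 over all 18193 genes. Since different probe sets bind with different strength, levels are compared between animals only, not between genes.

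**Figure D1:**
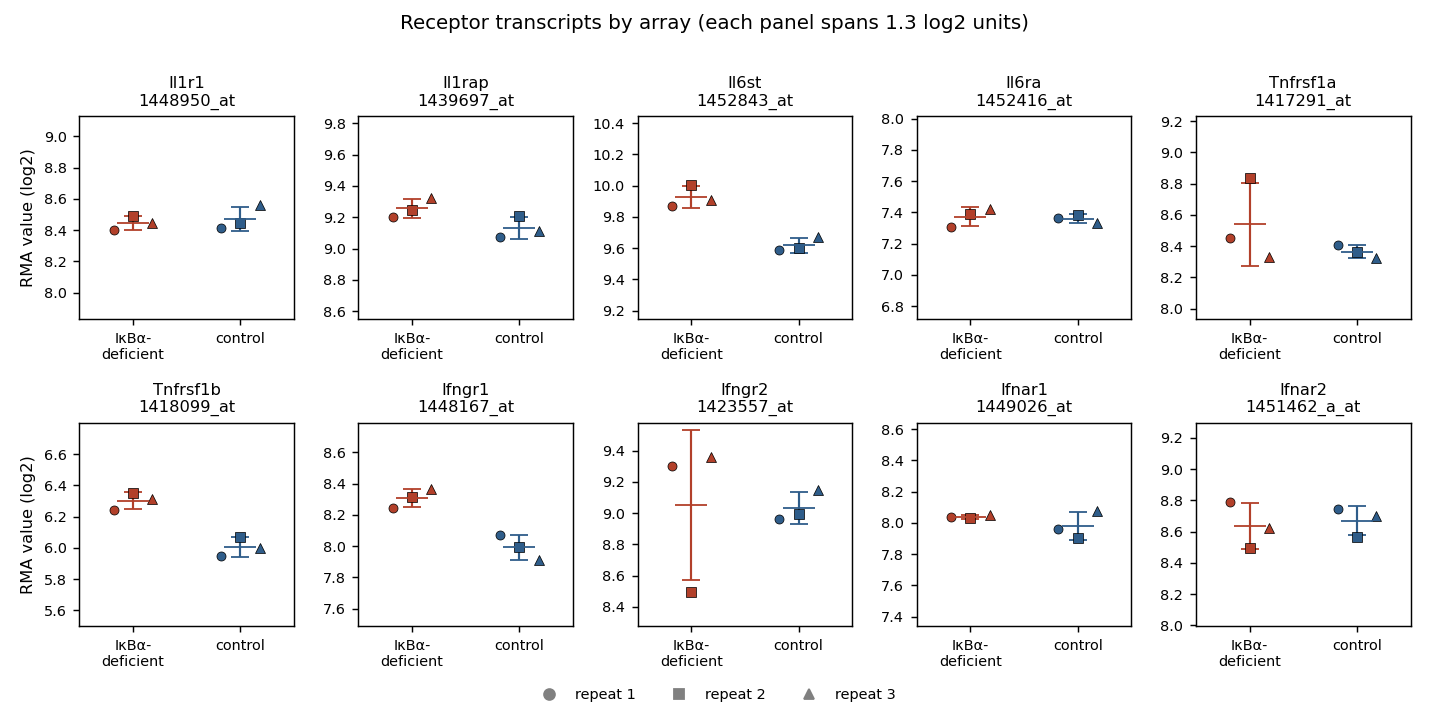
RMA values (log2) of the brightest probe set of each of the 10 receptor genes on every array, with IκBα-deficient animals at left and controls at right in each panel. Bars are the mean and SD of 3 arrays, symbols give the repeat number, and each panel spans the same height. Il6st, Tnfrsf1b and Ifngr1 show groups that do not overlap, while Tnfrsf1a and Ifngr2 each hold 1 IκBα-deficient array, repeat 2, far from the other two.

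The promoters of the 3 genes whose groups did not overlap are shown to display what sequence they have in common, with that of Ifngr2, the partner of Ifngr1, beside them. Each is the 250 bases before the gene start from RefSeq (GRCm38.p6), on the strand of the gene. Capitals mark matches on either strand to a κB consensus, to the GAS motif TTCNNNGAA bound by STAT dimers, to the ISRE core of interferon-stimulated genes, or to the GC box GGGCGG.
Il6st, chr13:112463820-112464069, plus strand: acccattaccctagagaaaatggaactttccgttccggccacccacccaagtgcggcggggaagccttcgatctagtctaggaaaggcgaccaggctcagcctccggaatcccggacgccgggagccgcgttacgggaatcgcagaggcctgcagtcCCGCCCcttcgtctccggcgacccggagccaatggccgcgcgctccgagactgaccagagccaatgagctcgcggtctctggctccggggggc
Tnfrsf1b, chr4:145246871-145247120, minus strand: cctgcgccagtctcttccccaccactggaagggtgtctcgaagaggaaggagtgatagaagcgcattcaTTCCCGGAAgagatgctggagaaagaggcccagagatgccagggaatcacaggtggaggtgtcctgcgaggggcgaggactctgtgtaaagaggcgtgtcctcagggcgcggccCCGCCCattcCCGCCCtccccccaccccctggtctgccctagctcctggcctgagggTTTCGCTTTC
Ifngr1, chr10:19591699-19591948, plus strand: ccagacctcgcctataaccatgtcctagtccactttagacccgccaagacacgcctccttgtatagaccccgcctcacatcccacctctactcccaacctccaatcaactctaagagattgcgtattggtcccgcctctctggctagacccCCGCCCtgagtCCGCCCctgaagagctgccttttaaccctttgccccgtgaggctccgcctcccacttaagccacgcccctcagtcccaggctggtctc
Ifngr2, chr16:91546809-91547058, plus strand: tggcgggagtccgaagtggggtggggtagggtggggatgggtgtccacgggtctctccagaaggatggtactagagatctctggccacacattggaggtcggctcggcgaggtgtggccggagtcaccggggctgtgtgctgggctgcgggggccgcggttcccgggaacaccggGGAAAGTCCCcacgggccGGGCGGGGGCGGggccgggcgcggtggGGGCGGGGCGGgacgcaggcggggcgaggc
The GC box was the single motif found in all of Il6st, Tnfrsf1b and Ifngr1, but it was found in 7 of the 10 genes, among them Il1r1, Il1rap, Ifngr2 and Ifnar1, and 32.7% of all 32851 promoter windows of this length hold it. Tnfrsf1b alone among the 10 genes had an ISRE core, TTTCGCTTTC, in the last 10 bases before the start, a motif held by 2.98% of windows. It also had a GAS match, TTCCCGGAA, 181 to 173 bases before the start. A GAS match was found in 3 of the 10 genes, Tnfrsf1a, Tnfrsf1b and Ifnar2, beside 7.02% of windows. A κB match was found in Ifngr2 and in 1 of the 2 windows of Il1r1, beside 7.25% of windows. Some of the GC boxes in Ifngr2 overlap each other, and no match of one motif overlapped one of another motif in the 4 windows shown. Such matches describe the letters only.

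In the interleukin-6 receptor complex, 2 of 4 probe sets of the shared signalling chain had separated groups, and none of the ligand-binding chain did. The chains were not tested against each other. Il6st encodes gp130, which also serves leukaemia inhibitory factor, oncostatin M and ciliary neurotrophic factor. Its brightest probe set, 1452843_at, stood at 9.87, 10.003 and 9.91 in IκBα-deficient animals, against 9.59, 9.60 and 9.67 in controls. The lowest IκBα-deficient array was thus above the highest control. The difference was 0.31 ± 0.07 (SE, 95% interval 0.14 to 0.47), with an unadjusted p of 0.00310 that ranked 64 of 45037 (limma). Probe set 1437303_at stood at 5.86, 5.94 and 5.74 in IκBα-deficient animals, against 5.40, 5.57 and 5.64 in controls, a difference of 0.31 ± 0.09 (SE). Again no control array reached the IκBα-deficient ones.

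The other Il6st probe sets went different ways. Probe set 1421239_at stood at 6.16, 6.20 and 5.98 in IκBα-deficient animals, against 6.17, 6.21 and 6.24 in controls, with a difference of -0.10 ± 0.08 (SE). Probe set 1460295_s_at stood at 6.13, 5.13 and 6.54 in IκBα-deficient animals, against 5.65, 5.99 and 5.96 in controls. Its IκBα-deficient array 2 lay below all controls while the other IκBα-deficient arrays lay above them. The difference was 0.06 ± 0.32 (SE) with that array and 0.47 ± 0.16 (SE) without it. Leaving that array out separates the groups by construction. Averaging all 4 probe sets gave 0.15 ± 0.08 (SE) for the gene. Which transcripts of Il6st each probe set reads is not given in the sources used here.

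Il6ra, the ligand-binding chain, showed close values in the groups. Probe set 1452416_at stood at 7.31, 7.39 and 7.42 in IκBα-deficient animals, against 7.37, 7.38 and 7.33 in controls. The groups overlapped, and the 95% interval of the difference was -0.15 to 0.17 around 0.01. The dimmer 1422270_a_at ranged from 5.11 to 5.35 in IκBα-deficient animals and from 4.96 to 5.45 in controls.

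Among the tumour necrosis factor receptors, Tnfrsf1b was higher on every IκBα-deficient array by 1 of its 2 probe sets. Probe set 1418099_at stood at 6.24, 6.35 and 6.31 in IκBα-deficient animals, against 5.95, 6.07 and 6.001 in controls, 1.23-fold higher. The difference was 0.30 ± 0.07 (SE, 95% interval 0.13 to 0.46), and the unadjusted p was 0.00373 (limma). Probe set 1448951_at, which is dimmer, stood at 5.64, 5.37 and 5.41 in IκBα-deficient animals, against 5.43, 5.60 and 5.11 in controls. It overlapped between the groups, with a difference of 0.09 ± 0.14 (SE), and the mean of both probe sets gave 0.19 ± 0.08 (SE).

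Tnfrsf1a had 1 probe set, 1417291_at, at 8.45, 8.84 and 8.33 in IκBα-deficient animals, against 8.41, 8.36 and 8.32 in controls. One IκBα-deficient array, repeat 2, stood above all others, and the groups overlapped. The difference was 0.18 ± 0.13 (SE) with that array and 0.03 ± 0.07 (SE) without it. That array also had the highest mean of the meninges marker list, 9.05 beside 8.19 and 8.21 on the other IκBα-deficient arrays and 7.80 to 8.28 in controls. With the meninges mean as a covariate the difference of Tnfrsf1a 1417291_at was 0.00096 ± 0.09 (SE), and with the difference between 3′ and 5′ probe sets of Gapdh and β-actin, which was also highest on that array, it was 0.029 ± 0.07 (SE). As 1 array is extreme in both measures, they cannot be told apart here.

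The interferon-γ receptor had 1 chain with separated groups. Ifngr1, the ligand-binding chain, was read by 1 probe set, 1448167_at, at 8.25, 8.31 and 8.36 in IκBα-deficient animals, against 8.07, 7.99 and 7.91 in controls. All IκBα-deficient arrays were above all controls, and the difference was 0.31 ± 0.08 (SE, 95% interval 0.14 to 0.49), with an unadjusted p of 0.00344 (limma). Ifngr2, the chain that brings in JAK2, stood at 9.30, 8.50 and 9.36 by 1423557_at in IκBα-deficient animals, against 8.96, 8.99 and 9.15 in controls. Here IκBα-deficient array 2 was the lowest of all and the other IκBα-deficient arrays were the highest. The difference was 0.02 ± 0.22 (SE) with that array and 0.30 ± 0.08 (SE) without it. As the other IκBα-deficient arrays were the highest, leaving array 2 out separates the groups by construction. The difference was 0.29 ± 0.07 (SE) with the 3′ to 5′ difference as a covariate and 0.35 ± 0.10 (SE) with the meninges mean. Both covariates are extreme on array 2, so these fits are not independent of leaving it out. The second Ifngr2 probe set, 1423558_at, ranged from 6.72 to 6.85 in IκBα-deficient animals and from 6.63 to 6.81 in controls, with a difference of 0.07 ± 0.08 (SE).

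The chains of the type I interferon receptor overlapped between groups by all 5 probe sets. Ifnar1 stood at 8.04, 8.03 and 8.05 by 1449026_at in IκBα-deficient animals, against 7.96, 7.90 and 8.08 in controls, a difference of 0.06 with a 95% interval of -0.11 to 0.23. The IκBα-deficient values lay close together inside the wider range of the controls. The dimmer 1442222_at ranged from 5.52 to 6.01 in IκBα-deficient animals and from 5.46 to 5.92 in controls. Ifnar2, which exists in membrane-bound and soluble forms, had 3 probe sets, all with a difference below 0. Its brightest, 1451462_a_at, stood at 8.79, 8.50 and 8.62 in IκBα-deficient animals, against 8.75, 8.57 and 8.70 in controls. The largest difference of the 3 was that of 1427691_a_at, at 6.82, 6.75 and 6.92 in IκBα-deficient animals, against 6.90, 6.97 and 7.10 in controls, a difference of -0.16 ± 0.08 (SE) with an unadjusted p of 0.0902 (limma).

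On mouse chromosome 16, RefSeq orders Ifnar2, Il10rb, Ifnar1 and Ifngr2 as neighbouring protein-coding genes, where Il10rb is a chain of the interleukin-10 receptor. Of these 4 neighbours Il10rb had separated groups, at 7.98, 8.16 and 8.01 in IκBα-deficient animals, against 7.85, 7.77 and 7.80 in controls, a difference of 0.24 ± 0.08 (SE) that did not pass (limma, adjusted p = 1.00). With the choroid plexus mean as a covariate it was 0.21 ± 0.13 (SE), and averaged over all Il10rb probe sets it was 0.07.

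The interleukin-1 receptor chains gave no separated groups by any of their 7 probe sets. Il1r1, the signalling receptor for interleukin-1, stood at 8.40, 8.49 and 8.45 by 1448950_at in IκBα-deficient animals, against 8.41, 8.44 and 8.56 in controls. The difference was -0.02 with a 95% interval of -0.19 to 0.15. The 0.31 of Il6st 1452843_at lay outside this interval, and the 0.15 averaged over all Il6st probe sets was about its upper limit. This interval holds the error of Il1r1 only, and these genes were not tested against each other. The other Il1r1 probe set, 1459777_at, ranged from 3.21 to 3.35 in IκBα-deficient animals and from 3.29 to 3.36 in controls. These are near the lowest values on the arrays, where RMA compresses differences.

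Il1rap, the accessory chain, was read by 5 probe sets that did not move alike. Probe set 1439697_at stood at 9.20, 9.25 and 9.32 in IκBα-deficient animals, against 9.07, 9.21 and 9.11 in controls, a difference of 0.13 ± 0.07 (SE). Probe set Il1rap 1442614_at went the other way, at 8.72, 8.75 and 8.83 in IκBα-deficient animals, against 8.79, 9.10 and 9.28 in controls. The groups overlapped through control array 1, and the difference was -0.29 ± 0.12 (SE) with an unadjusted p of 0.0521 (limma). Control array 1 was the only control within the range of the IκBα-deficient arrays, so leaving it out separates the groups by construction. The difference was then -0.42 ± 0.10 (SE), with an unadjusted p of 0.00395 (limma). With arrays weighted by their precision, highest for control array 1, it was -0.21 ± 0.13 (SE). With the choroid plexus mean as a covariate it was 0.016 ± 0.13 (SE). The 3 other probe sets had differences of 0.05 (1421844_at), -0.06 (1449585_at) and -0.12 (1421843_at). Il1rap is known to have a soluble form and a brain-enriched isoform, and which of them each probe set reads is not given in the sources used here.

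**Figure D2:**
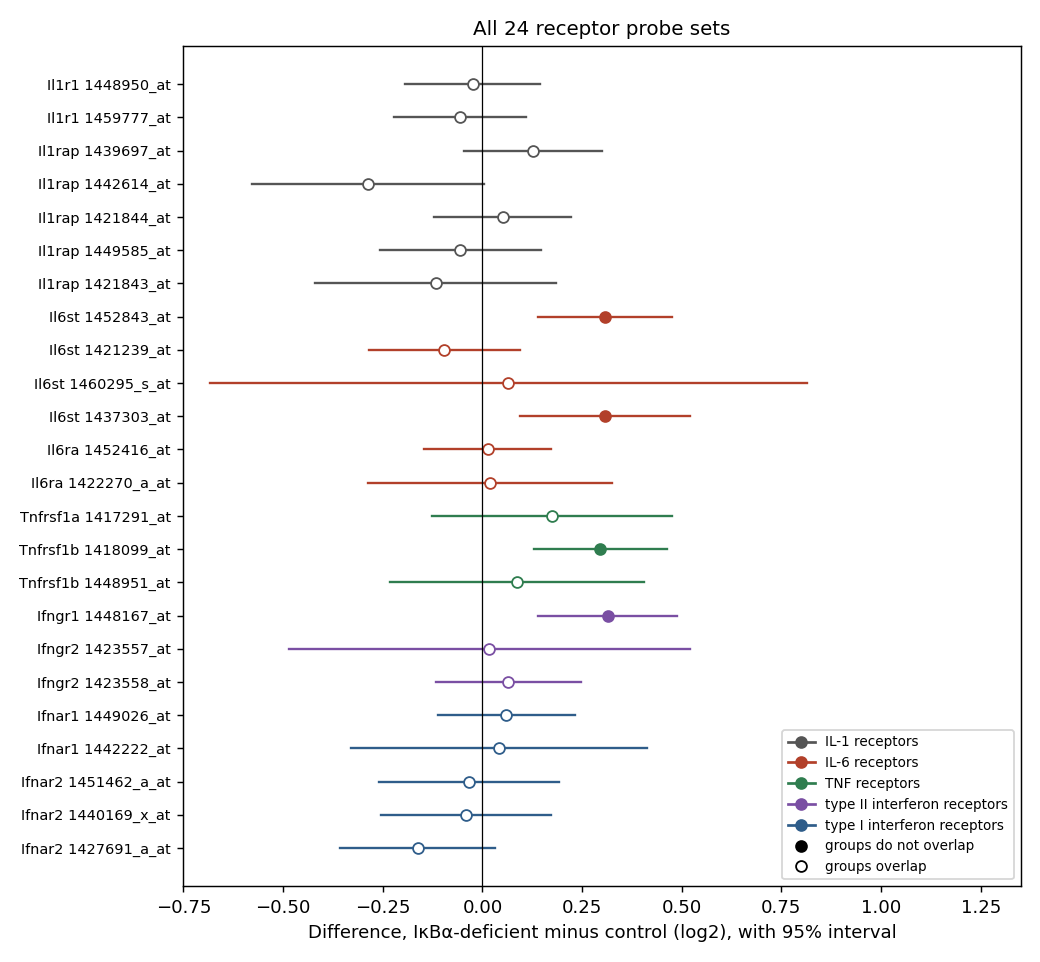
Difference between IκBα-deficient and control arrays (log2, IκBα-deficient minus control) for all 24 receptor probe sets, with 95% intervals from limma. Filled points are the 4 probe sets whose groups do not overlap, 2 of Il6st and 1 each of Tnfrsf1b and Ifngr1, and the widest interval belongs to Il6st 1460295_s_at.

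The arrays also differed in the levels of tissue markers and in a measure of RNA quality. The mean of 11 choroid plexus markers was 8.49, 7.88 and 7.57 on IκBα-deficient arrays, against 7.68, 5.68 and 5.75 on control arrays, and all 11 markers had a difference above 0. The 10 meninges markers were all above 0 as well, with a median of 0.34. Microglial markers had list means of 8.60 to 8.99 on IκBα-deficient arrays, against 8.79 to 8.94 on control arrays, with 5 of 11 markers above 0. Astrocyte markers had list means of 10.99 to 11.06 on IκBα-deficient arrays, against 10.91 to 10.97 on control arrays, with 5 of 8 above 0, and endothelial markers 7.91 to 8.12 against 7.81 to 7.99, with 6 of 9 above 0. Hippocampal neuron markers were present on all arrays, with list means of 10.95 to 10.97 on IκBα-deficient arrays and 10.93 to 11.03 on control arrays, 3 of 11 above 0 and a median of -0.06. Pericyte markers had list means of 7.99 to 8.45 on IκBα-deficient arrays, against 7.83 to 8.15 on control arrays, with 8 of 9 above 0 and a median of 0.17. Oligodendrocyte markers were above 0 in 6 of 7, with a median of 0.05, and leukocyte markers in 6 of 12, with a median of 0.0006. In such bulk tissue, more cells of a type and more RNA in each cell cannot be told apart. The 3′ probe sets of Gapdh and β-actin, set against their 5′ probe sets as a measure of RNA quality, gave a gap of 0.65, 2.02 and 0.61 on IκBα-deficient arrays and 0.56 to 0.73 on control arrays, widest on IκBα-deficient array 2.

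The separated receptor probe sets are given next with these measures as covariates. With the choroid plexus mean as a covariate, the difference was 0.36 ± 0.12 (SE) for Il6st 1452843_at, 0.38 ± 0.11 for Tnfrsf1b 1418099_at and 0.26 ± 0.12 for Ifngr1, whose unadjusted p was then 0.0749 (limma). With the meninges mean it was 0.28 ± 0.08, 0.26 ± 0.08 and 0.29 ± 0.09 for the same probe sets. With the 3′ to 5′ gap it was 0.27 ± 0.07, 0.27 ± 0.07 and 0.31 ± 0.08. That gap is extreme on IκBα-deficient array 2 only, so this fit comes close to leaving the array out. Leaving it out gave 0.27 for Il6st 1452843_at. Leaving out both IκBα-deficient array 2 and control array 1, a choice made after seeing the data, gave 0.25 for Il6st 1452843_at, 0.24 for Tnfrsf1b and 0.35 for Ifngr1, and 0.19 for Il6st 1437303_at. As the groups of these probe sets do not overlap, leaving arrays out could not turn their sign. Control array 1 was also the control with a choroid plexus mean in the range of the IκBα-deficient arrays. Without it, choroid plexus marker level and genotype cannot be told apart. When arrays were weighted by their precision, control array 1 had the highest weight, 2.17, and IκBα-deficient array 2 the lowest, 0.46. The list means of IκBα-deficient arrays exceeded those of controls by 0.16 for pericytes and by 0.09 each for astrocytes and endothelium, and their part in these differences was not tested.

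**Figure D3:**
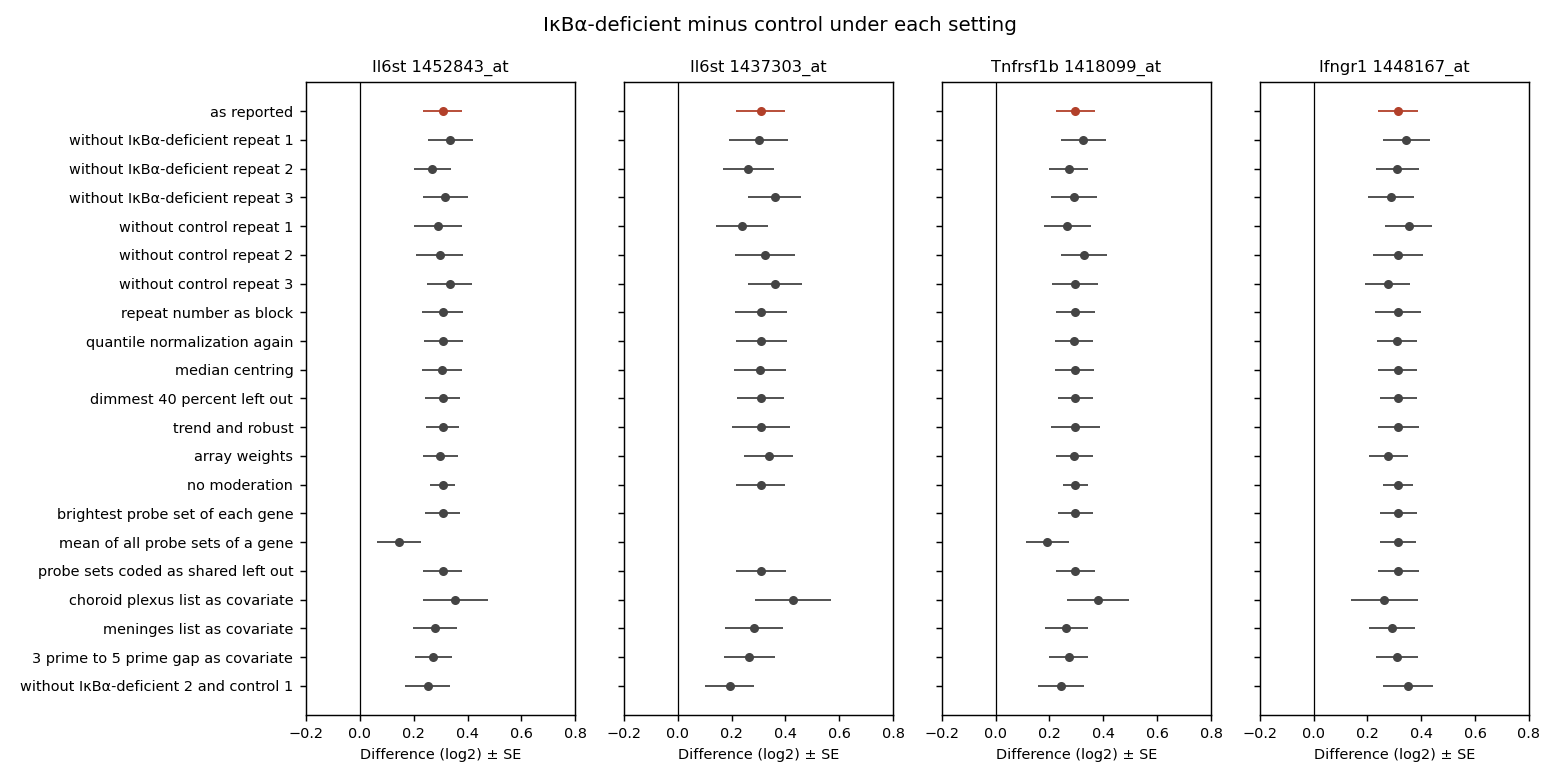
Difference (log2, IκBα-deficient minus control, ± SE) of the 4 probe sets with separated groups under each way of processing, 1 row for each. The groups of these probe sets were separated to begin with, so points from left-out arrays lie above 0 by construction, and the smallest value is 0.15 for Il6st when all its probe sets are averaged.

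Other genes of the same pathways gave 0 calls in either direction (limma, adjusted p under 0.05), each gene by its brightest probe set. Of these 137 genes, 12 had an unadjusted p under 0.05 (limma) with a difference above 0 and 2 with one below, where 2.61% and 1.06% of all genes did so. As the lists were chosen with earlier results of these data known, their counts beside such shares are description only. Further chains that pair with gp130 were above 0 in 3 of 4 measured genes, with a median of 0.12. Il27ra, a chain of the interleukin-27 receptor, stood at 5.51, 5.46 and 5.63 in IκBα-deficient animals, against 5.25, 5.38 and 5.37 in controls, and Lifr, the receptor for leukaemia inhibitory factor, differed by 0.12 ± 0.08 (SE). Of 8 further interleukin-1 family genes 5 were above 0 (median 0.04), with the decoy receptor Il1r2 at -0.21 ± 0.10 (SE) and Il18r1 at 0.18 ± 0.14 (SE). Both were among the dimmest 40% of probe sets. Of 21 further receptors of the tumour necrosis factor superfamily 16 were above 0 (median 0.02). The 2 of them with the smallest p were below 0, Tnfrsf12a, the receptor for TWEAK, at -0.25 ± 0.09 (SE) and Tnfrsf25 at -0.41 ± 0.22 (SE). Class II cytokine receptors other than the members were split, 4 above and 4 below 0, with Il10ra at -0.12 beside Il10rb at 0.24.

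The ligands of these receptors were mostly dim. Of 15 measured 9 were among the dimmest 40% of probe sets, and 6 were above and 9 below 0 (median -0.02). Ifna1, a type I interferon with many near-identical copies, differed by -0.23 ± 0.10 (SE) and the cytokine Il11, which is among the dim ones, by -0.18 ± 0.12 (SE). Below the receptors, 6 of 11 Janus kinase and STAT genes were above 0 (median 0.02), with Stat6, which acts for interleukin-4, at 0.24 ± 0.09 (SE) and Stat5b at 0.20 ± 0.09 (SE). Of 12 adaptors near the receptors 8 were above 0 (median 0.03), with Traf2, which binds TNFR2 directly, at 0.24 ± 0.08 (SE) and Irak2, a kinase of the interleukin-1 pathway, at -0.13 ± 0.07 (SE). Feedback inhibitors had 8 of 14 above 0 (median 0.02), with Usp18, which restrains IFNAR2, at 0.35 ± 0.15 (SE) and the phosphatase Ptpn2 at 0.16 ± 0.08 (SE). Usp18 was among the dimmest 40% and its groups overlapped, with its highest value, 5.68, on IκBα-deficient array 2.

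Genes of receptor shedding and traffic were all above 0, 7 of 7, by 0.05 to 0.12, with groups that overlapped for each. Adam10, a membrane protease, differed by 0.12 ± 0.09 (SE) and Rhbdf2, a partner of the protease that releases TNF and its receptors, by 0.11 ± 0.10 (SE). Interferon-induced genes were above 0 in 25 of 28 (median 0.18), and 7 were higher at an unadjusted p under 0.05 (limma). Over all genes, 52.6% were above 0 and 2.61% were higher at that p. The list means were 6.95, 7.18 and 7.06 on IκBα-deficient arrays, against 6.90, 6.87 and 6.78 on control arrays. The highest was on IκBα-deficient array 2, which also had the widest 3′ to 5′ gap and the highest meninges mean. Their part in this was not tested. Gbp7, a guanylate-binding protein, differed by 0.59 ± 0.10 (SE) and Gbp3 by 0.40 ± 0.10 (SE), and probe sets of this family may read near-identical copies. Genes induced by interleukin-6 in the acute phase were split, 5 above and 5 below 0, with Hp, haptoglobin, at 0.25 ± 0.08 (SE) and Lcn2 at -0.18 ± 0.11 (SE), both dim.

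**Figure D4:**
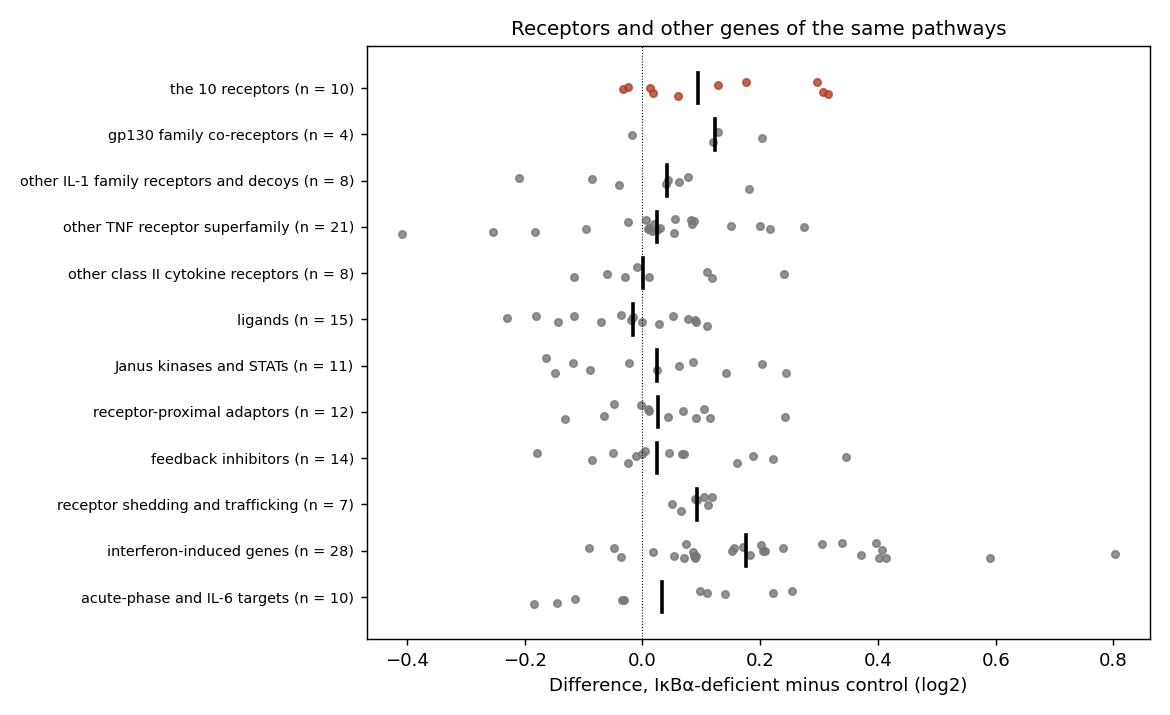
Differences (log2, IκBα-deficient minus control) of the brightest probe set of each gene, for the 10 receptors in the top row and for 11 lists of other genes of the same pathways under it. Vertical bars are medians, the interferon-induced genes have the highest at 0.18, and the ligands the lowest at -0.02.

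Among the 146 other genes of these lists and the receptors, each receptor was matched to the gene with the most similar values over the 6 arrays, by Pearson's r as a description, where arrays of both groups and their tissue content are shared. Tnfrsf1b was nearest to Il6st (r = 0.957). Both Il6st (r = 0.958) and Ifngr1 (r = 0.950) were nearest to Gbp7. These receptors and Gbp7 all have groups separated in the same direction, which by itself raises r. The best of 146 genes over 6 arrays is also high through the choice alone. Tnfrsf1a was nearest to Ifi35 (r = 0.977) and Ifngr2 to Socs2 (r = 0.980), both pairs with IκBα-deficient array 2 as an extreme value of the receptor. Of the receptors with overlapping groups, Il1r1 was nearest to Ptpn1 (r = 0.910), Il1rap to Irf9 (r = 0.917), Il6ra to Fas (r = 0.976), Ifnar1 to Adam17 (r = 0.964) and Ifnar2 to Ifi27 (r = 0.801).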

How the data were processed

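Per the submitters' processing notes, the authors made the deposited log2 values with RMA, which corrects background, applies quantile normalization and summarises the probes of each probe set. The RMA version, annotation and build used there are not given. Quantile normalization removes any shift common to most genes, and RMA compresses low values. Of 45101 probe sets, 64 controls were left out. The platform annotation held by GEO may be outdated. It gave 34945 probe sets 1 symbol, 932 several and 9160 none here, and no receptor symbol stood on a probe set with several. All 10 receptors were found in RefSeq.

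All 45037 probe sets were compared in limma (version 3.58.1, R version 4.3.3) by a moderated two-sided test with genotype as the term, and Benjamini-Hochberg adjustment over all of them and a threshold of 0.05. The fit was tested on simulated data, 10 datasets with 200 changed probe sets each: the share recovered was 72.2% for log2 changes of 1 and 0.4% for log2 changes of 0.3, about the size of the largest receptor differences. The simulated noise was independent between probe sets and held no tissue or RNA differences between arrays, so these shares need not hold for the real arrays. Array medians lay between 6.08 and 6.12, and correlations between arrays, across probe sets, between 0.992 and 0.998. Arrays have no read depth, and 3 animals for each group limit the precision. The receptors and lists were chosen with earlier results of these data known. The text names every receptor probe set, Nfkbia, the 2 genes with the smallest p in each of the 11 pathway lists, and the gene most like each receptor. Alternatives were arrays left out, the repeat number as a block, other normalization, filters, variance models and probe set choices, and covariates for tissue and RNA. Figures were drawn with matplotlib 3.10.9.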

Additional observations from a re-analysis of the deposited data

Results flagged for a closer look

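The control probe sets, which were left out of the genotype comparison and entered it only as a covariate, showed a difference of 2.02 on the log2 scale between 3′ and 5′ probe sets on IκBα-deficient array 2, above the 0.56 to 0.73 of the control arrays. On the same array Ifngr2 1423557_at (8.50) and Il6st 1460295_s_at (5.13) were the lowest of all 6 arrays and Tnfrsf1a 1417291_at (8.84) the highest. Ifnar2 1451462_a_at (8.50) and 1427691_a_at (6.75) were also lowest there. Of the separated probe sets, Il6st 1452843_at (10.003), Il6st 1437303_at (5.94) and Tnfrsf1b 1418099_at (6.35) were highest on that array. Ifngr1 1448167_at (8.31) was not.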

How the results depend on the processing

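Under 21 alternatives no receptor probe set was called, and the lowest adjusted p of any was 0.837 (limma). The groups of the 4 separated probe sets do not overlap, so leaving out arrays could not turn their sign. With 1 array left out, Il6st 1452843_at lay between 0.27 and 0.34, Tnfrsf1b 1418099_at between 0.27 and 0.33 and Ifngr1 between 0.27 and 0.35. Counts with 1 array left out were 12 to 15 receptor probe sets and 6 to 9 receptor genes above 0, 0 to 1 receptor probe sets lower at an unadjusted p under 0.05, and 1 to 8 probe sets of the whole array called (0 to 6 higher, the 6 without control array 1, and 1 to 4 lower, the 1 without IκBα-deficient array 2 or control array 3). The whole-array count was 0 without moderation, with the brightest probe set of each gene and with the choroid plexus covariate. It was also 0 without IκBα-deficient array 2 and control array 1 together. It was 1 with the mean of all probe sets, without shared probe sets or with the 3′ to 5′ covariate. All of these calls were lower. Il1rap 1442614_at was the 1 receptor probe set lower at an unadjusted p under 0.05 (limma) in several settings. These were control array 1 left out alone or with IκBα-deficient array 2, the block, renormalization, the trend and shared probe sets left out.

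The choroid plexus covariate turned Il1r1 1448950_at to 0.049, Il1rap 1442614_at to 0.016, Tnfrsf1b 1448951_at to -0.021 and Il18r1 to -0.067. The meninges covariate turned Il1rap 1421843_at to 0.0031, Il6ra 1452416_at to -0.0045, Ifnar1 1442222_at to -0.17, Ifnar2 1451462_a_at to 0.059 and Rhbdf2 to -0.0081. The 3′ to 5′ covariate turned Ifnar1 1442222_at to -0.078 and Ifnar2 1451462_a_at to 0.036, array weights turned Il6ra 1452416_at to -0.0037 and Ifnar1 1442222_at to -0.085, and the mean of all probe sets turned Il1rap to -0.056 and Lifr to -0.018. Without both arrays in doubt Il6ra 1422270_a_at was -0.045, Ifnar1 1442222_at -0.019 and Ifnar2 1451462_a_at 0.074. With 1 array left out, the ranges that crossed 0 were -0.054 to 0.019 for Il1r1 1448950_at, -0.11 to 0.0064 for Il1rap 1449585_at, -0.24 to 0.47 for Il6st 1460295_s_at, -0.011 to 0.045 for Il6ra 1452416_at, -0.11 to 0.14 for Il6ra 1422270_a_at, -0.049 to 0.20 for Tnfrsf1b 1448951_at, -0.13 to 0.30 for Ifngr2 1423557_at, -0.10 to 0.17 for Ifnar1 1442222_at, -0.11 to 0.036 for Ifnar2 1451462_a_at and -0.12 to 0.00026 for Ifnar2 1440169_x_at. The causes were not tested.

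The submitters describe 3 pairs of knockout animals and littermates, but no label ties the repeat number to a litter. Deviations of same-numbered arrays from their group means correlated at -0.0044, 0.273 and 0.0327, and IκBα-deficient array 1 correlated best with control array 3 (0.291). With the repeat number as a block, 2 probe sets were called in all, and Il6st 1452843_at was 0.31, Tnfrsf1b 1418099_at 0.30 and Ifngr1 0.31.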
